A study of Mus musculus with 10 samples.

Results

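The 59 microRNA rows are those whose symbol begins with Mir followed by a digit or by let, out of 12791 rows in the authors' deposited table of bone marrow progenitor RNA. No row begins with Mirlet. Of the 59, 58 name microRNA genes and 1, Mir17hg, names the long host transcript of the miR-17 to miR-92 cluster. The cells were lineage-negative, c-Kit-positive, Sca-1-negative hematopoietic progenitors of C57BL/6 mice. The labels give 3 KDR-positive libraries and 4 KDR-negative libraries from mice with tumors of GL261, a mouse glioma line, at week 4, and 3 libraries of naive mice, which had no tumor. KDR, the vascular endothelial growth factor receptor, was read through GFP knocked into its gene. The sources used here give neither whether naive mice carried that reporter nor whether each library was from its own mouse, so the p-values measure only the spread between these samples, which may be technical. In bulk RNA, fewer cells of a type and less RNA per cell cannot be told apart.

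The table holds 2 comparisons, and its header names neither the groups nor the direction, so they are called the first and the second. A positive log2 fold change means a higher level in what is here called the numerator group. Each row has a fold change, a mean in log2 CPM (scaled counts), a p-value and its adjusted value. Nothing is given per library, so no level below carries a standard deviation and the depth is unknown. The level of each group was worked out from these means and fold changes. Over all rows these levels summed to 2127130 CPM in the first numerator group, against 756537 CPM in its denominator group. The larger sum is above what scaling to library size alone allows, and the scaling used is not given by the sources used here. A derived level is therefore not read as a share of a library's reads, and differences between groups hold on the authors' scale. At equal weights of the sides, with nothing fitted, the denominator levels of the 2 comparisons differed by a median of 0.0087 (log2, absolute) over 9044 rows, against 0.070 for the next closest pair of sides, so both comparisons are read against 1 shared denominator group. The levels below use weights chosen for the closest match of these denominator levels, so their match is no separate check. With them the 48 microRNA rows at 10 CPM or more differed by a median of 0.046 (log2). The median absolute deviation of the difference over the 9044 rows was 0.0020 (log2). Kit, the receptor of the sorting gate, had derived levels of 38.8 CPM in the first numerator group and 60.3 CPM in the second, against 58.6 and 58.7 CPM in the denominator group, as derived from the first and from the second comparison, the order kept throughout. Ly6a, the gene for Sca-1, had 37.2 CPM in the first numerator group and 27.2 CPM in the second, against 27.6 and 27.5 CPM. Kdr had 2.24 CPM in the first numerator group and 0.378 CPM in the second, against 0.938 and 0.817 CPM. The authors' p-values are not recomputed, and a row is called at an adjusted p under 0.05. Kit, Ly6a and Kdr were called in neither comparison.

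MicroRNAs are short RNAs cut from hairpins within longer transcripts. In the nucleus Drosha and Dgcr8 release the hairpin, Xpo5 exports it, Dicer1 cuts it again, and an Argonaute protein carries the mature strand, whose seed, bases 2 to 8, pairs with target messages. In blood, miR-451 is abundant in erythroid cells, miR-142 is found across blood lineages, miR-196b is encoded in the Hoxa cluster and is made in early progenitors, and the miR-17 to miR-92 cluster promotes the survival of lymphoid precursors. Whether the reads behind a row came from the mature strand, the hairpin or the transcript around it was not given by the sources used here. The libraries were made from total RNA with an Illumina TruSeq RNA kit. A row's level is therefore not read as that of the mature microRNA.

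Mature sequences were found for 47 of the rows in RefSeq (GRCm38.p6). They are given for reference, and no level here is known to be that of a mature strand. Capitals mark the seed. The first set gives mature microRNAs, 1 arm or both, of the 8 genes that were higher in the second comparison, among them both blood microRNAs of that set, miR-451a and miR-196b.
mmu-miR-343: uCUCCCUUcaugugcccaga
mmu-miR-5133: gCUGGAGCugcggcagcgcag
mmu-miR-707: cAGUCAUGccgcuugccuacg
mmu-miR-451a: aAACCGUUaccauuacugaguu
mmu-miR-196b-5p: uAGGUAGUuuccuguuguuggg
mmu-miR-664-5p: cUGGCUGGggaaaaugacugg
mmu-miR-664-3p: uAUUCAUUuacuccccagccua
mmu-miR-5132-5p: gCGUGGGGugguggacucagg
mmu-miR-5132-3p: cUGAUGUUccccaucccgcag
mmu-miR-719: aUCUCGGCuacagaaaaauguu

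The second set is microRNAs whose genes were lower in the first comparison, shown for the blood and cluster genes and for the gene with the smallest p-value.
mmu-miR-3091-5p: cAUGGGUCugguugggcccgc
mmu-miR-3091-3p: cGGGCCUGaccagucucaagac
mmu-miR-142a-5p: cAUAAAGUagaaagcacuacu
mmu-miR-142a-3p: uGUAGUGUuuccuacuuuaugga
mmu-miR-20a-5p: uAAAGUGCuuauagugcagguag
mmu-miR-18a-5p: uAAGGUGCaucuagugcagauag
mmu-miR-19b-3p: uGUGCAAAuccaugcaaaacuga
mmu-miR-25-3p: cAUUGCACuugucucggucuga
mmu-miR-425-5p: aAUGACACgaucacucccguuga
mmu-miR-29b-3p: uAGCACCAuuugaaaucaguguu

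The third set gives 1 mature microRNA for each of the 3 genes that lay near 0 in the denominator group and were higher in the first numerator group.
mmu-miR-1945: uCUUCGCGgguacugucgggac
mmu-miR-1906: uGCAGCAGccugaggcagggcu
mmu-miR-7a-5p: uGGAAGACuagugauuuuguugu

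Seeds could be compared for the 47 rows with a mature sequence. Among their 72 mature sequences, the single seed held by 2 genes was GGGCCUG, of miR-3091-3p and miR-2861, and of these Mir3091 was lower in the first comparison while Mir2861 was called in neither.

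In the second comparison microRNA genes made up nearly all of the rows that were higher. Of the 59 rows, 8 were higher and none was lower, against 9 higher (0.0704%) and 5 lower (0.0391%) of all 12791 rows in the authors' deposited table. The ninth higher row was a small nucleolar RNA gene, Snora15. The smallest p of the second comparison belonged to Eef1a1, a translation elongation factor gene of high level in most cells, which had a derived level of 0.132 CPM in the second numerator group and 32245 CPM in the first, against 9287 and 9404 CPM in the denominator group. A gene of that kind at a level near 0 stands beside the all-or-nothing levels of the microRNA rows, and whether they share a source was not tested. The median log2 fold change there was -0.04 over the microRNA rows, against 0.00 over all rows. At an unadjusted p under 0.05 there were 16 microRNA rows, of 43 in the whole table.

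Mir451 was near 0 in every group but the numerator group of the second comparison. Its derived level was 118 CPM there and 0.0747 CPM in the numerator group of the first comparison, against 0.201 and 0.381 CPM in the denominator group. The authors' deposited table gave it 8.27 (log2) at an adjusted p of 0.00036 in the second comparison. Mir451, which encodes an erythroid microRNA cut by Argonaute 2 in place of Dicer, lies between annotated genes on chromosome 11. Other microRNA genes, small nucleolar RNA genes and unconfirmed transcripts were not considered in placing it. Levels this close to 0 are taken to depend on a prior count in the authors' fit, which the sources used here do not give. The size of this fold change is therefore no bound. Over the 11 microRNA rows under 2 CPM the 2 estimates of the denominator level differed by a median of 0.42 (log2).

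Erythroid genes were looked at after the value of Mir451 was seen. None of 10 such genes was called in the second comparison, where 0.109% of all rows were, nor was any below an unadjusted p of 0.05, and their log2 fold changes were -0.22 to 0.68 in the authors' deposited table. In the first comparison 5 of the 10 were higher, against 18.8% of all rows. These were the globin genes Hba-a1, Hba-a2, Hbb-b1 and Hbb-b2, and Alas2. Slc4a1, Klf1, Gata1, Epor and Tfrc were not called there, with log2 fold changes of -0.34 to 0.33 in the authors' deposited table. The globin gene Hba-a1 had a derived level of 15652 CPM in the first numerator group and 945 CPM in the second, against 1002 CPM in the first denominator group.

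Mir196b too was near 0 outside the second numerator group. Its derived level was 81.9 CPM in the second numerator group and 0.0682 CPM in the first, against 0.166 and 0.348 CPM in the denominator group. For this difference the authors' deposited table gave 7.88 (log2) at an adjusted p of 2.3e-08. Mir196b lies on chromosome 6 within the annotated span of Hoxa9, a homeobox gene of early progenitors. Hoxa9 itself stood at -0.24 (log2) with an adjusted p of 1 and a mean of 3.57 log2 CPM, per the authors' deposited table.

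Mir664 and Mir5132 were likewise near 0 outside the second numerator group. Mir664 had a derived level of 113 CPM in the second numerator group and 0.0764 CPM in the first, against 0.211 and 0.385 CPM in the denominator group. Mir5132 had 127 CPM in the second numerator group and 0.0707 CPM in the first, against 0.178 and 0.362 CPM in the denominator group. The authors' deposited table gave Mir664 a log2 fold change of 8.20 (adjusted p = 0.00033), and Mir5132 stood at 8.46 (adjusted p = 1.6e-10). The hairpin of Mir664 overlaps a small nucleolar RNA in the GENCODE M21 annotation of GRCm38, so reads of that gene and of Mir664 may not be told apart.

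Mir343, Mir5133 and Mir707 had a low level in the denominator group, above that of the 4 genes just described. Mir343 had a derived level of 281 CPM in the second numerator group and 4.20 CPM in the first, against 1.31 and 1.33 CPM in the denominator group. Mir5133 had 278 CPM in the second numerator group and 2.88 CPM in the first, against 1.48 CPM in the denominator group by the first comparison. Mir707 had 430 CPM in the second numerator group and 0.129 CPM in the first, against 1.18 and 1.40 CPM in the denominator group. Mir343 and Mir5133 ranked 2 and 3 by p-value among all rows of the second comparison. On the log2 scale Mir343 stood at 7.72 (adjusted p = 1.8e-29) in the authors' deposited table. Likewise the authors' deposited table put Mir5133 at 7.53 (adjusted p = 2.4e-26) and Mir707 at 8.27 (adjusted p = 1.5e-09). None of these 7 genes was called in the first comparison.

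Mir719 was the exception among the 8, with a level well above 0 in the denominator group and opposite calls in the 2 comparisons. Its derived level was 140.2 CPM in the second numerator group and 1.71 CPM in the first, against 48.6 and 48.7 CPM in the denominator group. The authors' deposited table gave it 1.52 (log2, adjusted p = 0.0015) in the second comparison, and -4.83 (adjusted p = 5.0e-12) in the first. Since the denominator group is not near 0, the fold change of the second comparison does not rest on a prior count. Mir3062 had the smallest p among the microRNA rows not called, with 93.7 CPM in the second numerator group against 47.5 CPM in the denominator group, a difference of 0.98 (log2, adjusted p = 0.085) per the authors' deposited table.

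A move from under 2 CPM in the denominator group to 50 CPM or more in the second numerator group was found for 8 rows of the whole table (0.0625%), all of them microRNA genes. These are the 7 genes above and Mir1945. The authors' deposited table gave Mir1945 a fold change of 8.68 in the second comparison, not called (adjusted p = 0.240). Its level of 50.1 CPM lay at the bound. The bound of 50 CPM is above the 10 CPM used for the first comparison, and both were chosen with earlier results known. Snora15, at 29.0 CPM against 1.02 CPM in the denominator group, passes 10 CPM but not 50 CPM. That all these rows are microRNA genes therefore depends on the bound.

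**Figure D1:**
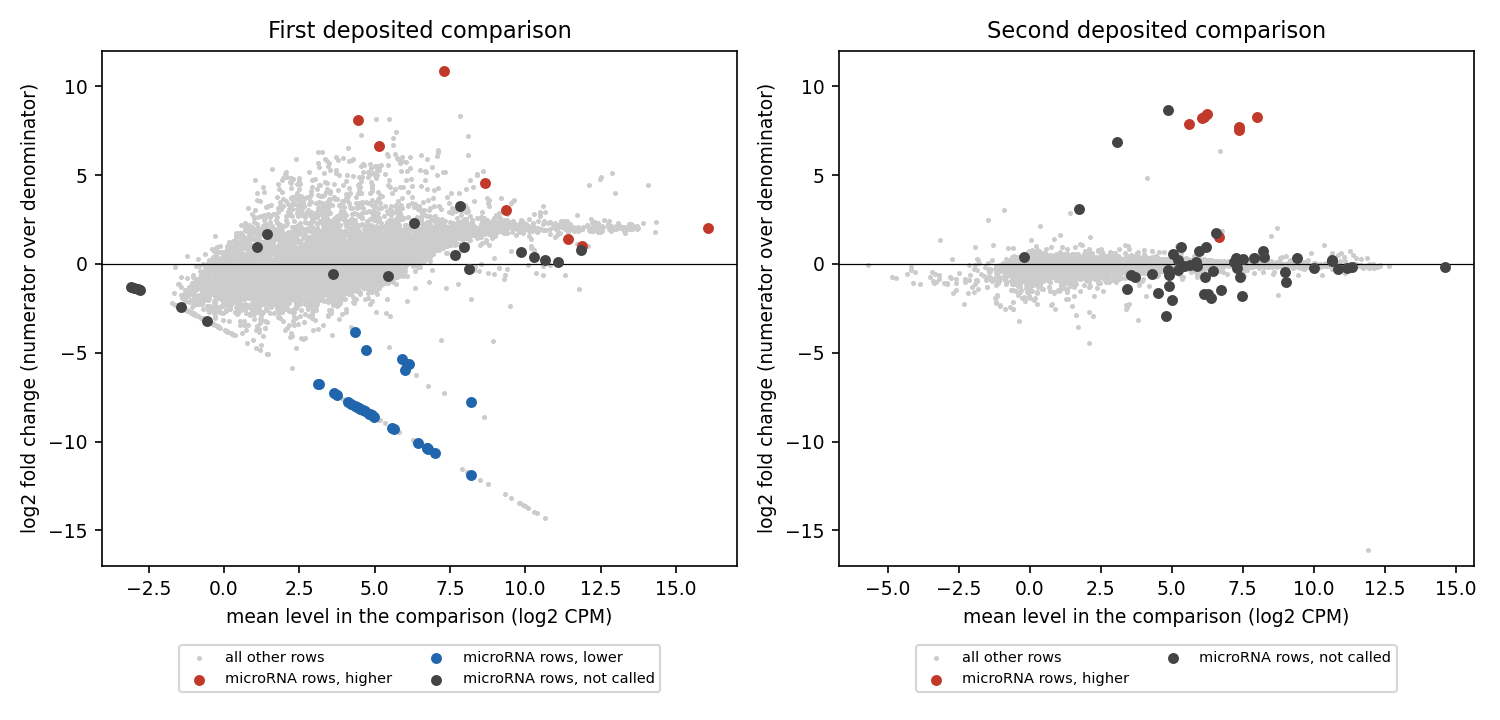
Log2 fold change of each row of the deposited table (numerator over denominator group) against its mean level in log2 CPM, for the first comparison (left) and the second (right). Grey points are all other rows and coloured points are microRNA rows by call at an adjusted p under 0.05. On the left 31 microRNA rows lie below 0, many on a straight edge set by numerator levels near 0; on the right 7 of the 8 higher rows lie at log2 fold changes of 7.53 to 8.46.

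In the first comparison the microRNA rows went mostly the other way. Of the 59 rows, 31 were lower and 8 higher, against 446 lower (3.49%) and 2401 higher (18.8%) of all rows in the authors' deposited table. The share of microRNA rows called was 66.1%, against 22.3% of all rows. When the derived levels of both sides were scaled to equal totals, a choice made after seeing the data, the called rows split into 1394 higher and 1453 lower over the whole table, and into 6 higher and 33 lower among the microRNA rows. The median log2 fold change was -4.83 over the microRNA rows and -0.13 over all rows of the authors' deposited table. The first of these values is taken to depend on a prior count, since many levels are near 0. The lower rows had a median level of 0.155 CPM in the first numerator group, against 54.7 CPM in the denominator group. In the second comparison 30 of these 31 rows were not called, with log2 fold changes of -2.01 to 1.75 in the authors' deposited table.

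Most of these genes lay near 0 in the first numerator group. In 24 of the 31 the numerator group of the first comparison lay between 0.151 and 0.158 CPM, while its denominator group lay between 16.5 and 569.8 CPM. At such levels the values are taken to depend on a prior count of the fit, which is inferred and not stated by the sources used here. The fold changes of these 24 genes, from -11.86 to -6.74 in the authors' deposited table, follow their denominator levels and are no bound on the loss. A level under 0.2 CPM in the first numerator group with 10 CPM or more in the denominator group occurred in 55 rows of the table (0.43%). The 24 microRNA rows were 43.6% of these, 30 others were small nucleolar or small nuclear RNA genes, and 1 was of another kind. The other 7 lower rows, Mir425, Mir3061, Mir719, Mir142, Mir1898, Mir5107 and Mir3096b, kept 1.71 to 2.78 CPM in the first numerator group.

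Mir142, which encodes the pan-hematopoietic miR-142, was among the highest of the genes lost. Its derived level was 2.58 CPM in the first numerator group and 439.8 CPM in the second, against 565 and 594 CPM in the denominator group. On the log2 scale the authors' deposited table gave it -7.78 (adjusted p = 1.8e-10) for the first comparison, and -0.43 (adjusted p = 1) for the second.

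Rows were present for 3 genes of the miR-17 to miR-92 cluster, and all were lower while the row of their host transcript was not called. Mir20a had a derived level of 0.157 CPM in the first numerator group and 57.5 CPM in the second, against 58.0 and 59.0 CPM in the denominator group. Mir18 had 0.155 CPM in the first numerator group and 60.5 CPM in the second, against 54.7 and 55.7 CPM in the denominator group. Mir19b-1 had 0.155 CPM in the first numerator group and 14.3 CPM in the second, against 54.3 and 57.8 CPM in the denominator group. In that order the authors' deposited table gave adjusted p-values of 5.4e-18, 8.7e-14 and 7.3e-05 for the first comparison. Mir17hg, the host transcript, had 9.88 CPM in the first numerator group and 9.63 CPM in the second, against 14.8 CPM in the denominator group by either comparison. Per the authors' deposited table it stood at -0.58 (log2, adjusted p = 0.579) in the first comparison, and at -0.62 (adjusted p = 1) in the second. The difference between the host transcript and its microRNAs was not tested.

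Mir25, Mir425 and Mir29b-2 are further well known microRNA genes that were lower. Mir25, which lies in an intron of the replication helicase gene Mcm7 beside other microRNA genes of its cluster, had a derived level of 0.154 CPM in the first numerator group and 133 CPM in the second, against 210.4 and 220.0 CPM in the denominator group. Mir425 had 2.71 CPM in the first numerator group and 150.3 CPM in the second, against 135 and 139.6 CPM in the denominator group. Mir29b-2, 1 of the genes for miR-29b, had 0.154 CPM in the first numerator group and 33.5 CPM in the second, against 41.0 and 43.2 CPM in the denominator group. For the first comparison the authors' deposited table gave them adjusted p-values of 4.2e-13, 3.6e-15 and 0.0010.

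Among the lower genes the smallest p-value was that of Mir3091. Mir3091, in an intron of the ribosomal protein gene Rps21, had a derived level of 0.154 CPM in the first numerator group and 745 CPM in the second, against 569.8 and 588 CPM in the denominator group (log2 fold change -11.86 at an adjusted p of 2.2e-44, per the authors' deposited table). Mir3112 and Mir3101 followed, under 0.2 CPM in the first numerator group against 204 and 168 CPM in its denominator group. Mir3062, Mir546, Mir3061, Mir1966, Mir677 and Mir1898, also among the 15 lower genes with the smallest p, had log2 fold changes of -10.65 to -5.35 in the authors' deposited table. The other 16 lower rows had denominator levels of 16.5 to 205 CPM, and the authors' deposited table gave them adjusted p-values of at most 0.0012. They were Mir3057, Mir697, Mir1949, Mir5117, Mir1938, Mir1981, Mir19b-1, Mir5107, Mir324, Mir1940, Mir3096, Mir1905, Mir3096b, Mir1901, Mir29b-2 and Mir671.

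**Figure D2:**
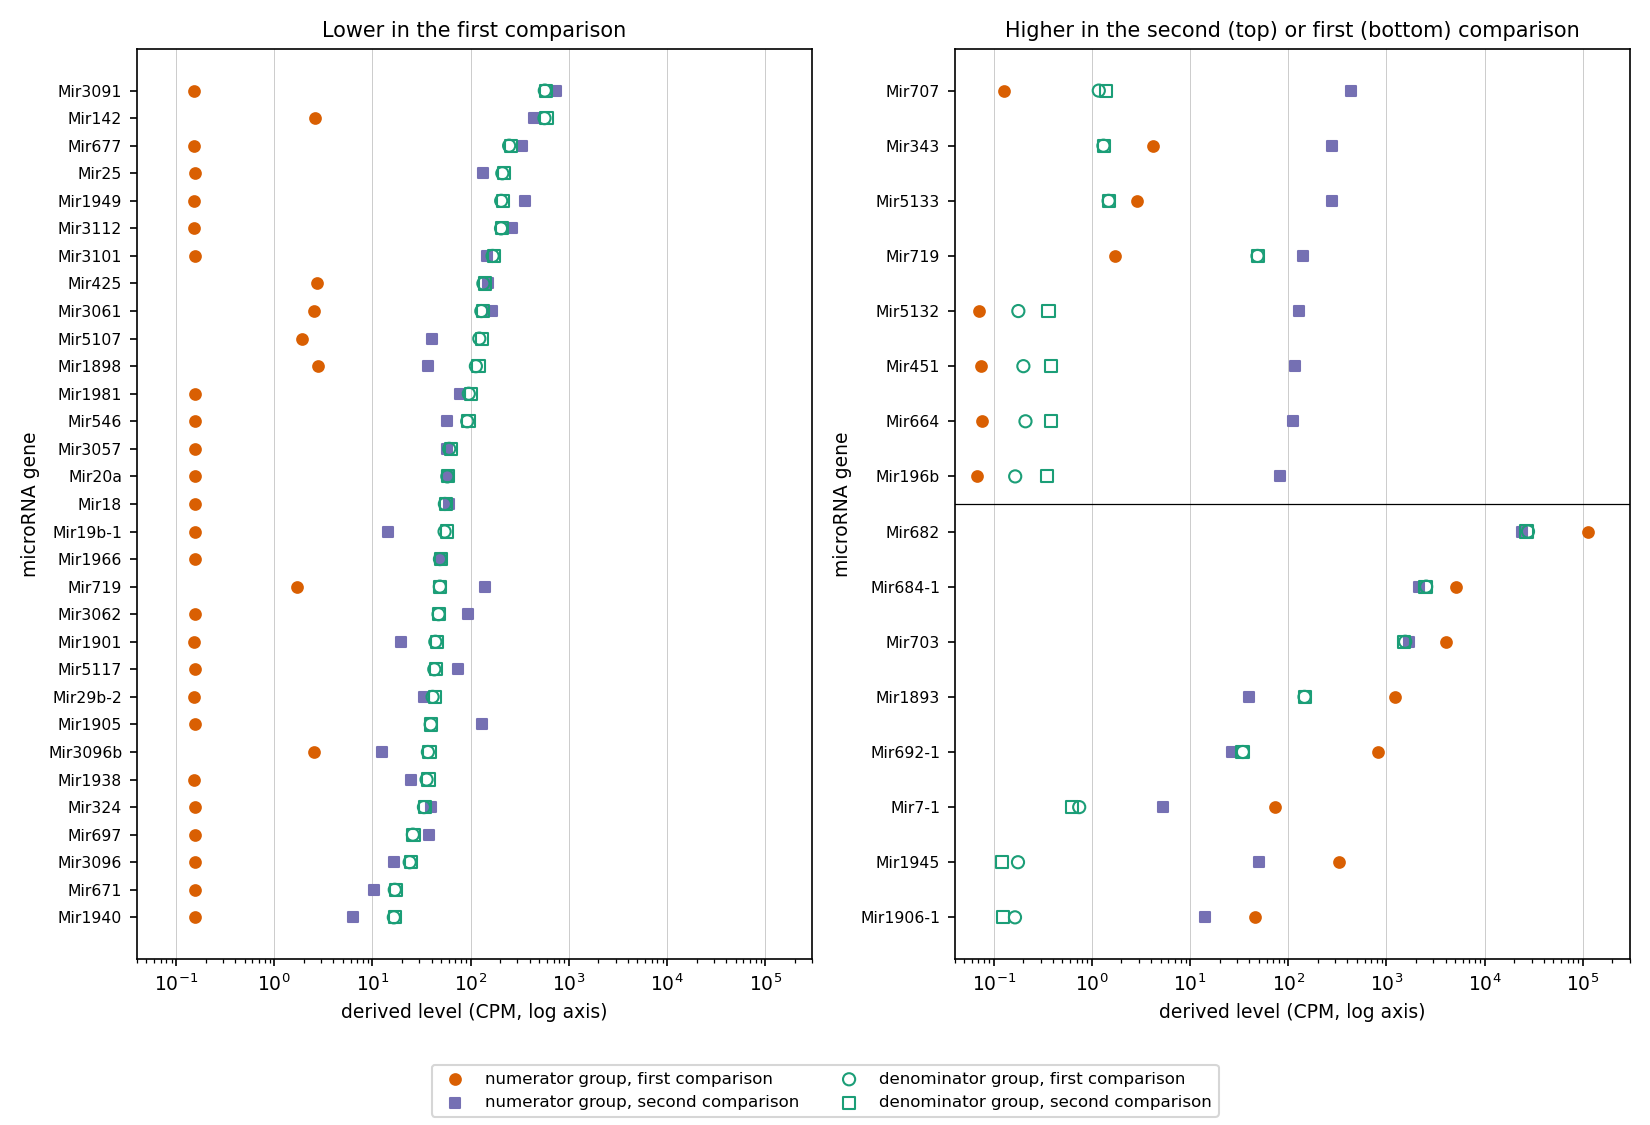
Derived level (CPM, log axis) of each called microRNA gene in the numerator groups (filled) and the denominator group (open, as derived from each comparison). The left panel holds the 31 genes lower in the first comparison, with 24 first numerator levels between 0.151 and 0.158 CPM; the right panel holds the 8 genes higher in the second comparison (top) and the 8 higher in the first (bottom). Mir719 appears in both panels, and of the 31 genes on the left it and the other 6 above 1 CPM are the exceptions.

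Of the 8 genes higher in the first comparison, 3 lay under 1 CPM in the denominator group. Mir1945 had a derived level of 330.0 CPM in the first numerator group and 50.1 CPM in the second, against 0.177 and 0.122 CPM in the denominator group. Mir1906-1, which lies in the imprinted long RNA gene Meg3, had 45.8 CPM in the first numerator group and 14.2 CPM in the second, against 0.165 and 0.123 CPM in the denominator group. Mir7-1, in an intron of the RNA-binding protein gene Hnrnpk, had 73.9 CPM in the first numerator group and 5.25 CPM in the second, against 0.743 and 0.622 CPM in the denominator group. All 3 had a higher derived level in both numerator groups than in the denominator group, with adjusted p-values of 5.1e-05, 0.00016 and 0.00038 in the first comparison of the authors' deposited table. The second comparison of the authors' deposited table called none of them, at adjusted p-values of 0.240, 0.537 and 1. A move from under 2 CPM to 10 CPM or more in the first comparison was found in 138 rows of the table (1.08%). Of the 59 microRNA rows 5.08% made this move, and they were 2.17% of the 138.

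The other 5 were well above 0 on both sides. Mir692-1 had a derived level of 816 CPM in the first numerator group and 26.4 CPM in the second, against 34.4 and 34.2 CPM in the denominator group. Mir1893 had 1218 CPM in the first numerator group and 39.6 CPM in the second, against 146 and 149 CPM in the denominator group. For the first comparison the authors' deposited table put Mir692-1 at 4.57 (log2, adjusted p = 3.2e-05) and Mir1893 at 3.06 (adjusted p = 0.0017).

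Mir682 had the highest mean of all rows of the table in both comparisons. Its derived level was 112856 CPM in the first numerator group and 24034 CPM in the second, against 27599 and 26639 CPM in the denominator group. It held 82.2% of the summed level of the microRNA genes in the first numerator group and 58.8% in the second, against 62.2% and 61.2% in the denominator group. The annotation places Mir682 in a processed pseudogene, Gm4149, so its reads may come from a near-identical copy elsewhere and its level is uncertain. The authors' deposited table put it at 2.03 (log2, adjusted p = 2.1e-09) in the first comparison, while the second gave -0.15 (adjusted p = 1).

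For Mir703 and Mir684-1 the direction depended on the scale. Mir703 had 4062 CPM in the first numerator group and 1693 CPM in the second, against 1549 and 1512 CPM in the denominator group. Mir684-1, which has a near-identical copy, Mir684-2, had 5145 CPM in the first numerator group and 2153 CPM in the second, against 2535 and 2497 CPM in the denominator group. For the first comparison the authors' deposited table put Mir703 at 1.39 (log2, adjusted p = 1.1e-05) and Mir684-1 at 1.02 (adjusted p = 0.0020). The derived levels of all rows summed to 2127130 CPM in the first numerator group against 756537 CPM in the denominator group, and at equal totals the 2 fold changes became -0.10 and -0.47, while the other 6 higher genes stayed above 0 and all 31 lower genes below it.

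The 13 rows called in neither comparison included several at high levels. Mir3064, in the helicase gene Ddx5, had 4775 CPM in the first numerator group and 2463 CPM in the second, against 2746 and 2757 CPM in the denominator group. Mir684-2, Mir5121, Mir1982 and Mir3960 stood at 0.11, 0.24, 0.37 and 0.69 (log2) in the first comparison of the authors' deposited table. In the second comparison of the authors' deposited table they stood at -0.28, 0.21, -0.24 and -1.02. Mir1894 had -0.26 (log2) in the first and -1.81 in the second comparison of the authors' deposited table. Mir5121 overlaps a small nucleolar RNA gene, with which it may share reads. The other 7 of the 13 were Mir678, Mir1902, Mir17hg, Mir704, Mir762, Mir2861 and Mir3068, of which Mir3068 alone stayed under 1 CPM in all groups.

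Hairpin lengths overlapped between the sets of called genes. Hairpins of genes lower in the first comparison were 64 to 121 nucleotides long, with a median of 87 over 29 genes. Those of the 8 genes higher in the first comparison were 78 to 109 nucleotides long (median 91), those of the 8 higher in the second 69 to 110 (median 74), and those of the 12 microRNA genes called in neither 67 to 86 (median 78). Median GC content was 47.7% over 23 lower genes with a hairpin sequence, 60.3% over 5 genes higher in the first comparison, 52.4% over the 8 higher in the second and 57.1% over 11 called in neither. These are descriptions without a test.

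Host genes, which hold a microRNA gene on the same strand, were counted beside the microRNA rows. Of the 31 lower microRNA genes, 15 overlapped an exon of such a host, 13 lay in an intron, 1 lay on the other strand of a gene, and 2 were not matched. A host row was present for 22 of them. The host was not called in the first comparison for 15 of these microRNA genes, higher for 6 and lower for 1, where 22.3% of all rows were called. At equal totals 3 of these higher hosts, Mcm7, Ctdsp2 and Ppp2ca, lay below 0. Counted once each, the 22 microRNA genes had 20 host genes, of which 13 were not called. Per the authors' deposited table the median log2 fold change of these hosts was 0.26. The 1 lower host was AI506816, which holds Mir3096, at -1.48 (log2, adjusted p = 0.049) in the authors' deposited table. Rps21, the host of Mir3091, stood at 2.36 (log2, adjusted p = 2.8e-14) in the authors' deposited table, while Mcm7, the host of Mir25, stood at 1.04 (adjusted p = 0.0033). Atp5b, an ATP synthase gene that holds Mir677, stood at 2.21 and Cd74, the invariant chain gene that holds Mir5107, at 2.54 in the authors' deposited table, the opposite sign to the microRNA rows within them. Among the 8 genes higher in the second comparison, 7 had a host row and none of these hosts was called, where 0.109% of all rows were, with log2 fold changes of -0.24 to 0.11 in the authors' deposited table. These hosts included Ercc2 for Mir343, Glce for Mir5133, Akt1s1 for Mir707, Irak1 for Mir5132 and Rab3gap2 for Mir664. The difference between a microRNA row and its host was not tested.

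**Figure D3:**
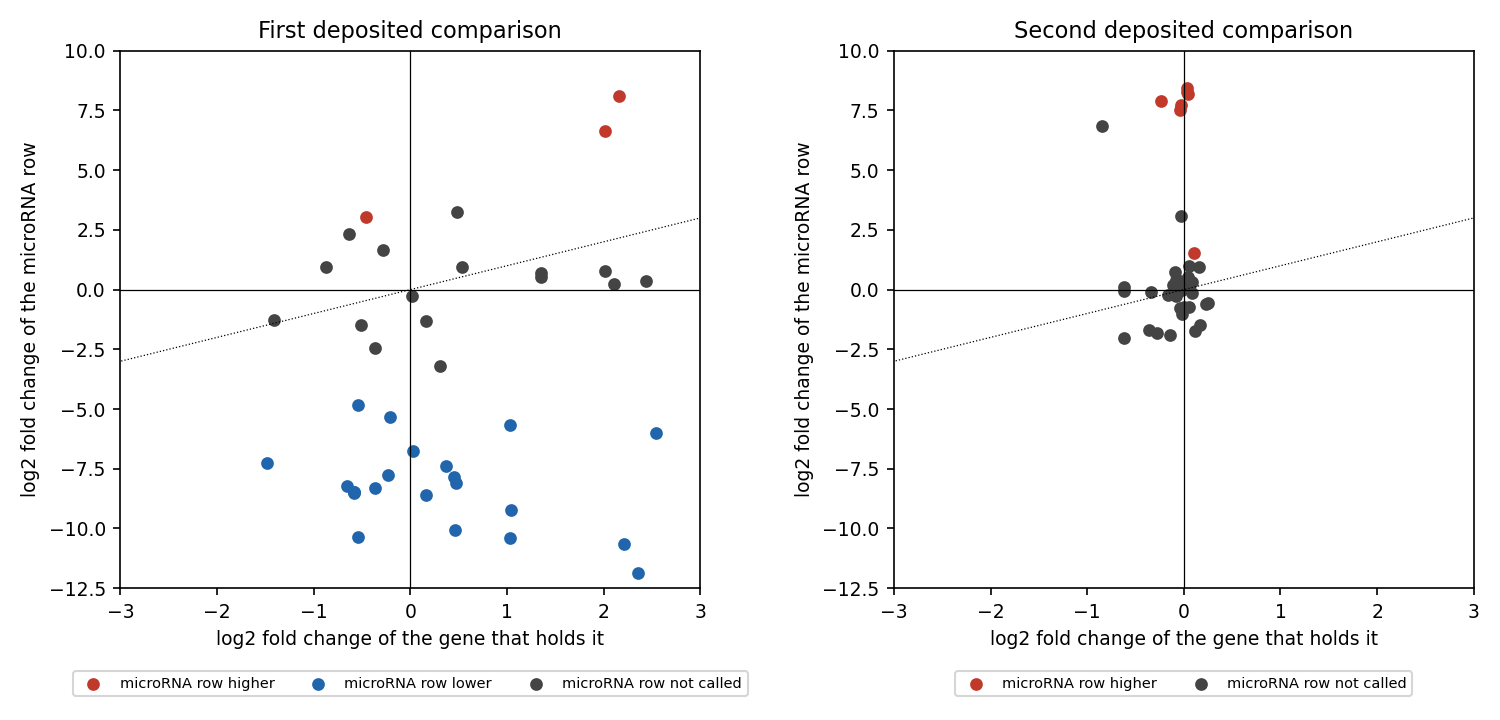
Log2 fold change of each microRNA row (vertical) against that of the gene that holds it on the same strand (horizontal), numerator over denominator group, for the 41 microRNA genes whose host has a row. The dotted line marks equal fold changes; in the second comparison (right) the 7 higher microRNA rows with a host stand far above it or, for Mir719 at 1.52, nearer to it, with hosts between -0.24 and 0.11.

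The small nucleolar, Cajal body and small nuclear RNA genes, the rows most like the microRNA genes in size, were also often lower in the first comparison. Of 85 such rows 38 were lower and 4 higher there, against 31 lower and 8 higher of the 59 microRNA rows. Over all rows 3.49% were lower and 18.8% higher. In the second comparison 1 of the 85, Snora15, was higher and 1, Snord15a, lower, against 8 higher of the 59 microRNA rows. Over all rows 0.0704% were higher and 0.0391% lower. Whether RNA size or quality had a part in these differences was not tested. Snora15 had a derived level of 29.0 CPM in the second numerator group and under 0.2 CPM in the first, against 0.818 and 1.02 CPM in the denominator group. In GENCODE, 7 of the microRNA genes overlap a small nucleolar RNA on either strand, 4 of them among the lower genes of the first comparison, namely Mir677, Mir1949, Mir5117 and Mir3096.

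Genes that make and carry microRNAs were called about as often as all rows. Of 29 measured genes of the list of processing, export, Argonaute and decay factors, 6 were higher and none lower in the first comparison, 20.7% against 22.3% of all rows, and none was called in the second, where none had an unadjusted p under 0.05 either. The list had a median log2 fold change of -0.32 in the first comparison, against -0.13 over all rows, while the second gave 0.05, against 0.00 over all rows. Drosha and Dgcr8, which release the hairpin, stood at -0.57 (log2, adjusted p = 0.285) and -0.23 (adjusted p = 0.809) in the first comparison of the authors' deposited table. The authors' deposited table put Xpo5, the exporter, at -0.77 (adjusted p = 0.064) and Dicer1 at -0.99 (adjusted p = 0.127). Eif2c2, the older name of the gene for Argonaute 2, stood at -0.73 (adjusted p = 0.310), per the authors' deposited table.

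The 6 higher genes of the list were Ran, the GTPase of nuclear transport, at 2.05, Tarbp2, a partner of Dicer, at 1.92, the helicase gene Ddx5 at 2.02, and the chaperone genes Hspa8 at 2.29, Hsp90aa1 at 2.13 and Hsp90ab1 at 2.22 in the authors' deposited table. In the second comparison the whole list lay between -0.28 and 0.33 in the authors' deposited table.

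Of 46 microRNA genes listed for their known roles in blood, 6 had a row. Those were Mir451, Mir196b, Mir142, Mir20a, Mir18 and Mir19b-1, of which 4 were lower in the first comparison and 2 higher in the second. Of all microRNA rows 52.5% were lower in the first comparison and 13.6% higher in the second, against 3.49% and 0.0704% of all rows. The other 40, among them Mir223, Mir155 and Mir144, the neighbor of Mir451, were not analysed here.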

How the data were processed

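Per the labels' protocols, total RNA of sorted progenitors, extracted with a microRNA isolation kit, was made into libraries with an Illumina TruSeq RNA kit. Bowtie 0.12.2 and mm8 appear in the submitters' processing notes, with no roles. The sources used here do not say how reads were counted, whether by strand, on which annotation or with which test. The authors deposited log2 fold changes and mean levels in log2 CPM, with base 2 inferred from the match of the derived levels. The p-values deposited by the authors carry an adjusted value that equals the Benjamini-Hochberg adjustment over all 12791 rows. The planned tests on values per library were not run, since the table has none.

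The level of each side was derived by taking the mean as a weighted sum of the 2 sides. The weights of the numerator groups, 0.48 and 0.59, gave the closest denominator levels over 9044 rows above 3 log2 CPM in both comparisons, and the search was tested on simulated data. Host genes came from GENCODE M21 and names from RefSeq, both on GRCm38, by symbol; 57 rows were matched and no coordinates were used with the files.

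Named rows follow a rule: Mir451 and Mir196b; called rows, the 15 with the smallest p in each direction where there were over 30; the 6 uncalled rows with the highest mean in each comparison; Drosha, Dgcr8, Xpo5, Dicer1, Eif2c2 and called biogenesis genes; and hosts. The gate genes Kit, Ly6a and Kdr were also named in advance. Other genes were chosen after their values were seen. The members, lists and level bounds were chosen with earlier results of these data known. Python 3.11.15, pandas 2.3.3 and numpy 2.4.6 were used. The erythroid genes are those reported here; 1 gene looked at with them is not reported here.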

Additional observations from a re-analysis of the deposited data

How the results depend on the processing

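No paired analysis was possible because the table holds no value per library, and for the same reason the replicate block and leaving out single libraries were not run. Among the microRNA rows the calls of both comparisons stayed the same under an adjusted p of 0.01, the Benjamini-Yekutieli adjustment, a minimum mean of 2 log2 CPM, a minimum fold change of 1 (log2) and centring on the median of all rows. At an adjusted p of 0.1, Mir678 was also called higher in the first comparison and Mir3062 in the second. At equal totals, an alternative chosen after seeing the data, which lowers the log2 fold changes of the first comparison by 1.49, Mir703 became -0.10 and Mir684-1 -0.47, so that 6 rows were higher and 33 lower. Of the biogenesis genes 1, Xpo5, was lower in the first comparison at an adjusted p of 0.1, against none at 0.05. Other weights of the sides, 0.5 or by library numbers of 3 and 4, gave 24 rows near 0 in the first numerator group each time, and 8 gained rows in the second, or 7 with weights of 3 against 4. Depth is unknown, so levels near 0 cannot be turned into a limit.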
